A study of Saccharomyces cerevisiae with 6 samples.

Results

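The hexose transporters HXT1 to HXT7 and the hexose kinases HXK1, HXK2 and GLK1 of budding yeast were followed in cells given caffeine. These 10 genes were taken by their symbols in the array platform's annotation, out of 5561 named genes on the array. Each had 1 spot, and all 10 gave a value on every array, as did 5212 of the named genes. Both strains were Saccharomyces cerevisiae W303a without the chromosomal TOR1 gene, which encodes the kinase of the nutrient-responsive complex TORC1, and carried on a plasmid a copy of TOR1 with a 3HA epitope tag. The plasmid copy bore the substitutions I1954V and W2176R in the mutant strain and was unaltered in the strain called WT, so that both strains share the deletion and depend on a plasmid for TOR1. For each strain, RNA of cells in 3, 6 or 9 mM caffeine (Cy5) was hybridised against RNA of the same strain without caffeine (Cy3), on 1 two-colour array per dose. That gave 3 mutant and 3 WT arrays and no replicate of any dose. The labels do not say how many transformants of each plasmid were used.

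Glucose enters yeast by facilitated diffusion through the Hxt proteins and is trapped by phosphorylation. Low-affinity carriers (Hxt1, Hxt3) serve cells in plentiful glucose, and high-affinity carriers (Hxt2, Hxt4, Hxt6, Hxt7) serve cells in scarce glucose, while Hxt5, of moderate affinity, is known to appear when growth slows. Hxk2 is the main kinase during growth on glucose and also takes part in glucose repression, whereas HXK1 and the glucokinase gene GLK1 are known as genes held down by glucose. In RefSeq's gene order (assembly R64), HXT7, HXT6 and HXT3 lie next to or near each other on chromosome IV, and HXT4, HXT1 and HXT5 on chromosome VIII, so that each cluster holds genes of different affinity.

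The deposited values were log2 ratios. Their sense was taken as caffeine over no caffeine, which the sources used here do not state, and every sign below would turn if it ran the other way. From each array the median over its named genes was subtracted (-0.54 to -0.22), and the SD of the centred values was 0.663 to 0.988 on the mutant arrays and 0.792 to 1.201 on the WT arrays. Strings of 3 values run from 3 to 6 to 9 mM. A slope is the log2 change per mM of a line through 0, given ± its SE from limma (n = 3 arrays per strain), and "rose" and "fell" are used for slopes with a Benjamini-Hochberg adjusted p below 0.05 over all 5212 genes. Because the line starts at 0, a gene can be called to fall or rise without a steady change from 3 to 9 mM. With an intercept shared by all arrays, the only call left among the 10 genes in either strain was GLK1 in WT. That loss is not repeated below for every gene. RNA came from whole cultures, so fewer cells with a transcript and less transcript per cell cannot be told apart. The labels do not say whether the doses were separate cultures, and the p-values measure only the spread of these arrays about a line, which may be technical.

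GLK1 and HXT5 rose and HXK2 fell in both strains. HXT4 also fell in the mutant, and HXT1 and HXT2 also fell in WT. HXT3 lay above the array median on all 3 mutant arrays and below it on all 3 WT arrays, a pattern that was not counted over all genes. Among the 10 genes, 2 rose in the mutant, where 12.1% of all genes rose, and 2 fell, where 15.8% of all genes fell. In WT 2 rose, against 17.2% of all genes, and 3 fell, against 16.3%. Without centring, the split was 1 higher and 3 lower in the mutant and 2 higher and 5 lower in WT, and over all genes 201 higher and 1737 lower in the mutant and 489 and 1483 in WT. After quantile normalization, 2 members were higher and 1 lower in the mutant and 2 higher and 2 lower in WT. Over all genes that setting gave 316 higher and 391 lower in the mutant and 360 and 443 in WT. No member passed the test of the difference in slope, mutant minus WT, where 1.94% of all genes were higher in the mutant and 2.32% were lower. At an unadjusted p below 0.05 in limma there were 2 of the 10, HXT2 and HXT3, and 1106 of all 5212 genes.

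**Figure D1:**
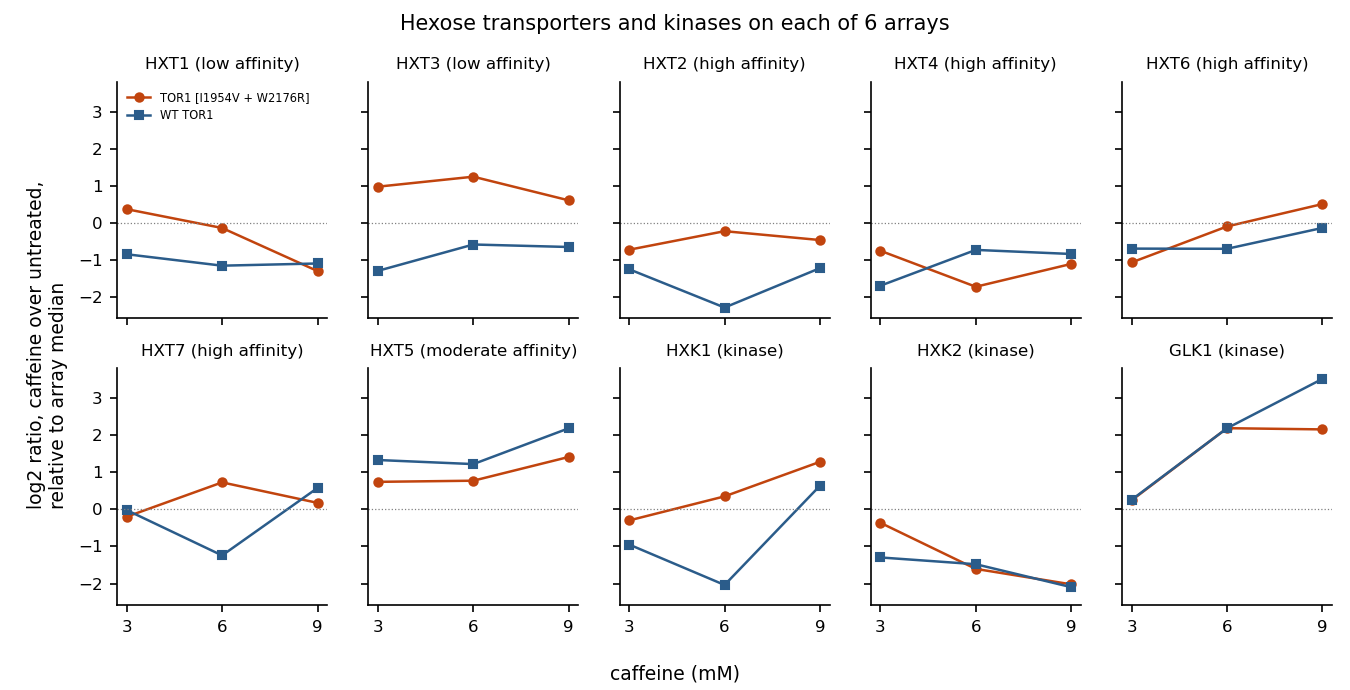
Centred log2 ratio (caffeine over untreated; vertical axis) of each of the 10 genes against caffeine dose (mM), for the mutant (circles) and WT (squares), 1 array per point. HXT3 is the panel in which the strains lie on opposite sides of 0 at every dose, and GLK1 the one with the highest value, 3.52 in WT at 9 mM.

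Counted by size alone, the genes lying at least 2-fold from the median numbered 1 of 10 in the mutant at 3 mM, then 4 and 6 at the higher doses. Of all genes measured on these arrays, 13.0%, 25.0% and 28.5% lay that far out. In WT the members numbered 5, 7 and 5, against 18.1%, 27.1% and 35.0% of all genes.

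HXT3, a low-affinity carrier expressed over a wide range of glucose, stood at 0.97, 1.24 and 0.61 in the mutant and at -1.30, -0.59 and -0.65 in WT. The mutant value exceeded that of WT by 2.27, 1.83 and 1.26, each a difference between 1 mutant and 1 WT array. HXT3 had a slope of 0.13 ± 0.05 in the mutant and -0.11 ± 0.05 in WT, and neither passed (limma adjusted p = 0.0693 and 0.114). The difference, 0.23 ± 0.07 per mM, had a 95% interval of 0.08 to 0.38 and an adjusted p of 0.0774. When each strain was given 1 mean over its doses in place of a slope, HXT3 passed as higher in the mutant (adjusted p = 0.0204), as lower in WT (adjusted p = 0.0252) and as different between them (adjusted p = 0.0328). The difference also passed with trended and robust variances (adjusted p = 0.0399), and at 0.34 per mM once the mutant array of 9 mM was left out (adjusted p = 0.0435). The HXT3 difference thus passed in only 3 of 13 other settings of the fit, with the same sign in all 13. Its adjusted p lay between 0.0328 and 0.289, the highest after quantile normalization. A test of the 3 differences at matched doses against 0, with dose as a block, was chosen after seeing the data and gave a mean of 1.79 (limma adjusted p = 0.0163). That test called 588 of all 5212 genes as different. Without centring, HXT3 passed in WT at -0.16 (adjusted p = 0.0288), and its mutant slope was 0.06 (adjusted p = 0.355). The mutant slope passed with trended and robust variances (adjusted p = 0.0411) and without the WT 3 mM array (adjusted p = 0.0499). The slope weights 9 mM most, and that was the dose at which the strains lay closest for this gene.

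HXT1, the low-affinity carrier induced by abundant glucose, had values of 0.37, -0.14 and -1.30 in the mutant and of -0.85, -1.16 and -1.10 in WT. All WT arrays were low, whereas the mutant was above the median at 3 mM and below WT at 9 mM. HXT1 fell in WT, by -0.15 ± 0.04 per mM (adjusted p = 0.0161), and had a slope of -0.09 ± 0.04 in the mutant (adjusted p = 0.132, and 0.0180 without centring). The WT call was lost after quantile normalization (adjusted p = 0.0685), without the WT 6 mM array (adjusted p = 0.0817) and without the WT 9 mM array (adjusted p = 0.0537). The difference of 0.06 per mM had an interval of -0.07 to 0.20, so that it was not resolved in either direction. HXT3 exceeded HXT1 on the same array by 0.61, 1.38 and 1.91 in the mutant and by -0.45, 0.57 and 0.44 in WT, a comparison that centring cannot alter.

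HXT2, a high-affinity carrier induced by scarce glucose, stood at -0.73, -0.23 and -0.46 in the mutant and at -1.25, -2.29 and -1.22 in WT. Every array was below the median, and at each dose WT was lower. HXT2 fell in WT (-0.23 ± 0.05 per mM, adjusted p = 0.00404) and did not pass in the mutant (-0.06 ± 0.05, adjusted p = 0.375). The difference was 0.16 ± 0.07 (interval 0.01 to 0.32, adjusted p = 0.204). It passed without the WT 9 mM array, at 0.33 and adjusted p = 0.0255.

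HXT4, likewise a high-affinity carrier, had values of -0.75, -1.72 and -1.11 in the mutant and of -1.70, -0.73 and -0.84 in WT. All 6 values were below the median, and the lowest came at 6 mM in the mutant but at 3 mM in WT. HXT4 fell in the mutant (-0.18 ± 0.05, adjusted p = 0.0241). That call was lost without the mutant 6 mM array (adjusted p = 0.137) and after quantile normalization (adjusted p = 0.0887). WT had a slope of -0.14 ± 0.05 (adjusted p = 0.0621), which passed with 1 mean per strain (adjusted p = 0.0140), without centring (adjusted p = 0.0197) and without the mutant array of 6 or 9 mM (adjusted p = 0.0463 and 0.0446). The difference between strains was -0.04 ± 0.07, with an interval of -0.20 to 0.12.

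HXT6 and HXT7, neighbouring high-affinity genes whose coding sequences are nearly identical, passed no test in either strain. HXT6 stood at -1.07, -0.10 and 0.51 in the mutant and at -0.70, -0.70 and -0.14 in WT. HXT7 stood at -0.20, 0.73 and 0.18 in the mutant and at -0.02, -1.24 and 0.58 in WT. Both were lowest at 3 mM in the mutant and at 6 mM in WT, where the HXT6 values at 3 and 6 mM were nearly equal. From 6 to 9 mM in the mutant, HXT6 was higher at the higher dose and HXT7 lower. Transcripts of either gene could bind both spots, which was not tested. If they do, the distance between the spots shows how far 2 measurements of nearly one sequence can differ. HXT7 minus HXT6 was 0.87, 0.83 and -0.33 in the mutant and 0.68, -0.54 and 0.72 in WT, with a median absolute difference of 0.70 over the 6 arrays. For 33 genes of the table with 2 spots the median absolute difference was 0.80 and the 90th percentile 1.83. Such spots may lie on different stretches of a gene. A difference between 2 spots on an array is not the error of 1 spot between arrays, which was not measured. The 95% intervals of the strain difference were -0.08 to 0.22 per mM for HXT6 and -0.09 to 0.22 for HXT7.

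HXT5, the carrier of moderate affinity, was above the median on all 6 arrays, with 0.74, 0.77 and 1.42 in the mutant and 1.33, 1.22 and 2.19 in WT. The WT values were the higher ones at each dose. HXT5 rose in the mutant (0.16 ± 0.04, adjusted p = 0.0134) and in WT (0.25 ± 0.04, adjusted p = 5.03e-04). The mutant call was lost without centring (adjusted p = 0.0784) and once the mutant array of 9 mM was left out (adjusted p = 0.142). With an intercept shared by all arrays HXT5 passed in neither strain (adjusted p = 0.738 in the mutant and 0.222 in WT). The difference between strains was -0.09 ± 0.06, with an interval of -0.21 to 0.03 (adjusted p = 0.372). HXT5 lies beside HXT1 on chromosome VIII, and exceeded it on the same array by 0.38, 0.91 and 2.72 in the mutant and by 2.18, 2.38 and 3.29 in WT.

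Taken by affinity, the mean of the low-affinity pair minus the mean of the 4 high-affinity genes was 1.36, 0.88 and -0.13 in the mutant and -0.16, 0.37 and -0.47 in WT. The mutant arrays at 3 and 6 mM stood highest. Means of the low-affinity pair were 0.67, 0.55 and -0.35 in the mutant and -1.07, -0.87 and -0.87 in WT. The high-affinity means were -0.69, -0.33 and -0.22 in the mutant and -0.92, -1.24 and -0.41 in WT. In the mutant the low-affinity mean was thus lower, and the high-affinity mean higher, at each higher dose, and in WT both were below the median throughout. These contrasts have no test. With HXT5 counted among the high-affinity genes the contrast was 1.07, 0.66 and -0.45 in the mutant and -0.61, -0.12 and -0.99 in WT. With HXT6 and HXT7 counted as 1 gene it was 1.38, 1.10 and 0.06 in the mutant and 0.03, 0.46 and -0.26 in WT. Its sign was the same under these groupings only at 3 and 6 mM in the mutant and at 9 mM in WT. Each value came from 1 array, so the sign was not tested. The contrasts are independent of centring, but the mutant low-affinity mean joins HXT1 and HXT3, which lay further apart at each higher dose.

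**Figure D2:**
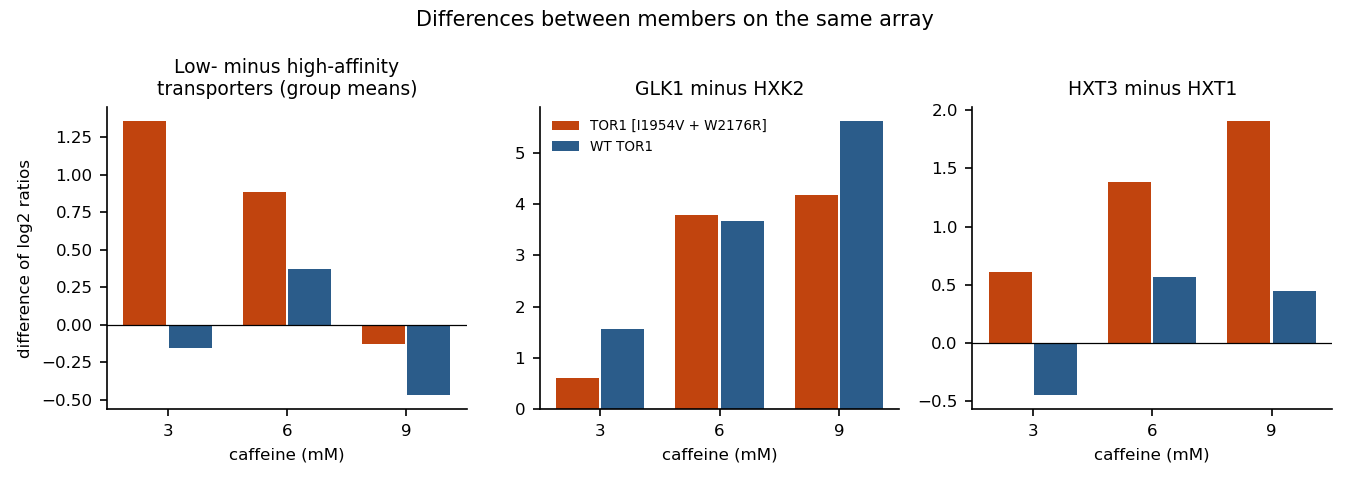
Differences of log2 ratios between members measured on the same array (vertical axes, which differ between panels) against caffeine dose (mM), mutant bars left of WT bars, 1 array per bar. The low- minus high-affinity contrast is 1.36 in the mutant and -0.16 in WT at 3 mM. GLK1 minus HXK2 is above 0 on all 6 arrays, and HXT3 minus HXT1 reaches 1.91 in the mutant and 0.44 in WT at 9 mM.

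Among the kinases, GLK1 and HXK2 moved in opposite directions in both strains. GLK1, which encodes the kinase specific for aldohexoses such as glucose, stood at 0.25, 2.19 and 2.16 in the mutant and at 0.26, 2.19 and 3.52 in WT. The strains were nearly equal at 3 and 6 mM, and mutant minus WT was -1.36 at 9 mM. After quantile normalization, which gives all arrays the same spread, that difference was -0.60 at 9 mM and 1.04 at 6 mM. The deposited ratios at 9 mM, before centring, were 3.08 in the mutant and 8.84 in WT. GLK1 rose in the mutant (0.26 ± 0.05 per mM, adjusted p = 0.00204) and in WT (0.36 ± 0.05, adjusted p = 8.82e-05). The mutant call was lost with 1 mean per strain (adjusted p = 0.0544). Of all 5212 slopes it was number 49 from the top in the mutant and number 64 in WT. The difference between strains was -0.10 ± 0.07, with an interval of -0.24 to 0.04 (adjusted p = 0.407).

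HXK2, the hexokinase of rapidly growing cells, had values of -0.36, -1.60 and -2.02 in the mutant and of -1.30, -1.48 and -2.10 in WT. All were below the median, and mutant minus WT was 0.94, -0.13 and 0.08. HXK2 fell in the mutant (-0.23 ± 0.04, adjusted p = 0.00193) and in WT (-0.25 ± 0.04, adjusted p = 4.15e-04). The difference of 0.02 ± 0.06 had an interval of -0.10 to 0.14. The deposited ratios at 9 mM were 0.17 in the mutant and 0.18 in WT, where a step of the second decimal is coarse. Set against each other on the same array, the ratio of GLK1 to HXK2 was 1.52, 13.9 and 18.1 times that of untreated cells in the mutant and 2.94, 12.7 and 49.1 times in WT.

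HXK1, the other hexokinase, stood at -0.30, 0.35 and 1.28 in the mutant and at -0.95, -2.04 and 0.64 in WT. The mutant values were higher at each higher dose, whereas in WT the lowest came at 6 mM and the only one above the median at 9 mM. Neither slope passed, with 0.10 ± 0.07 in the mutant (adjusted p = 0.258) and -0.07 ± 0.07 in WT (adjusted p = 0.413). A line through 0 describes the WT values poorly. Without the WT 9 mM array HXK1 had a WT slope of -0.33 (adjusted p = 0.00455) and differed between strains by 0.44 per mM (adjusted p = 0.0103), against 0.18 ± 0.09 over all arrays (interval -0.03 to 0.38, adjusted p = 0.299). Without the WT 6 mM array the WT slope was 0.03. The WT 6 mM array also held the lowest WT value of HXT2 (-2.29) and HXT7 (-1.24). By small margins it held that of HXT1, HXT5 and HXT6 too, but not of HXT3, HXT4, HXK2 or GLK1. How many of all genes were lowest on that array was not counted.

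**Figure D3:**
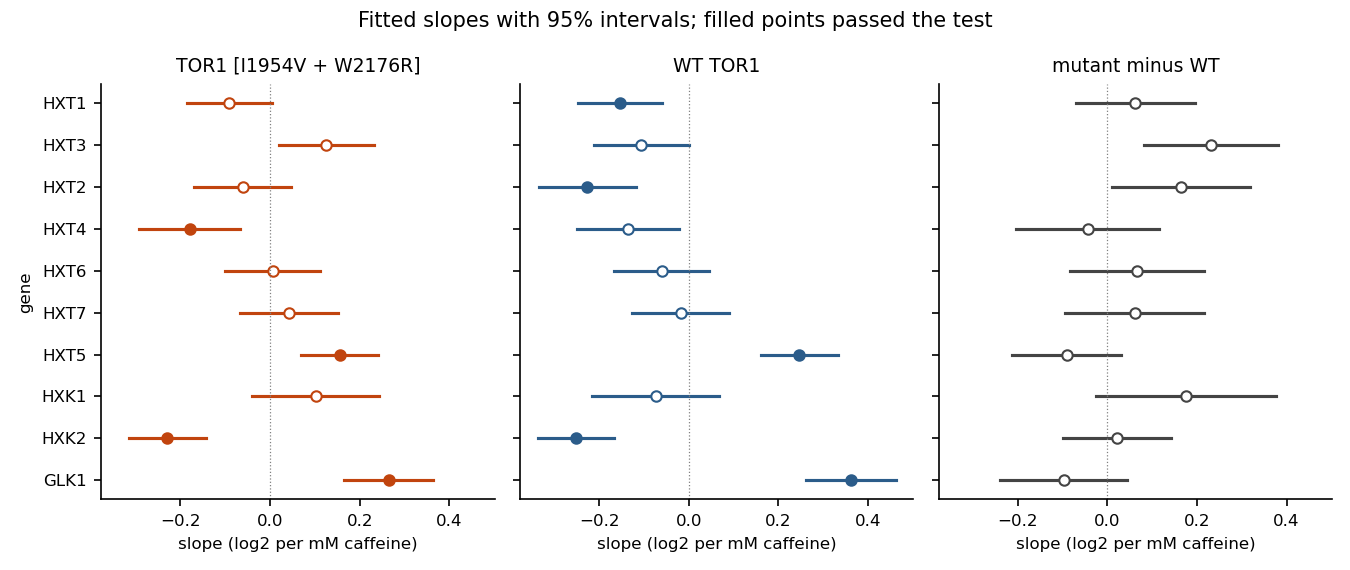
Slope of each gene in log2 units per mM caffeine (points) with 95% intervals (lines) in the mutant, in WT and for the difference mutant minus WT. Filled points passed the test at an adjusted p below 0.05, which 4 genes did in the mutant, 5 in WT and none for the difference; the interval for HXT3 runs from 0.08 to 0.38 in the last panel.

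Ordered by slope from high to low, the mutant ran GLK1, HXT5, HXT3, HXK1, HXT7, HXT6, HXT2, HXT1, HXT4 and HXK2. No neighbours in this order had 95% intervals apart from each other. WT ran GLK1, HXT5, HXT7, HXT6, HXK1, HXT3, HXT4, HXT1, HXT2 and HXK2. There the interval of HXT5 (0.16 to 0.33) lay above that of HXT7 (-0.13 to 0.09), and no other neighbours were apart. GLK1 and HXT5 were at the top and HXK2 at the bottom in both orders. HXT3 was the third from the top in the mutant and the sixth in WT.

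Likeness was measured as the Euclidean distance over the 6 centred values, for the 4 members with the largest mean absolute value, among all genes with a value on every array. The nearest genes to GLK1 were PBI2 at 1.44 and PRB1 at 1.48, which encode an inhibitor of proteinase B and that proteinase, and GPC1 at 1.49. Those to HXK2 were RFU1 at 0.56, RPS29B at 0.64 and RPO26 at 0.84. HXT5 had GSY2, glycogen synthase, and FBP26 both at 0.38, and RCH1 at 0.60. HXT4 had MET31 at 0.58, RRG1 at 0.65 and IZH1 at 0.67. GLK1 thus had no gene as near to it as the other 3 had, but it also had the largest mean absolute value, 1.76. The distance is not scaled to the size of the values.

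Of 10 further transporters of the family measured, 7 had a value on every array. None of these 7 passed in the mutant, with a median slope of 0.02. In WT, HXT15 and HXT16, close copies whose transcripts could bind both spots, rose and HXT8 fell (2 and 1 of 7, where 17.2% and 16.3% of all genes did), with a median slope of 0.10 (over all genes the median was 0.00 in each strain). HXT15 stood at 0.03, -0.16 and 0.65 in the mutant and at 0.54, 0.22 and 1.98 in WT, and once the WT array of 9 mM was left out it did not pass there (adjusted p = 0.519), nor without centring (adjusted p = 0.0649), with 1 mean per strain (adjusted p = 0.0566) or after quantile normalization (adjusted p = 0.0639). HXT8 stood at -0.64, -0.52 and -0.46 in the mutant and at -0.15, -0.64 and -1.81 in WT, and its call was lost without the same array (adjusted p = 0.312) and after quantile normalization (adjusted p = 0.0513). HXT16 was named after its values were seen. GAL2, the galactose carrier, had no value on the WT 6 mM array and was fitted on 5 arrays. It stood at -1.30, -1.49 and -1.46 in the mutant and at -1.09 and -1.46 in WT at 3 and 9 mM, and fell in both (adjusted p = 0.00689 in the mutant and 0.0191 in WT). HXT13, also without a value at WT 6 mM, had -1.47, -1.39 and -0.86 in the mutant, where it fell (adjusted p = 0.0304), and -0.41 and 0.41 in WT. The mutant value of HXT13 was higher at 9 than at 3 mM, so that the call rests on the line through 0. EMI2, the paralogue of GLK1, had 0.08, 0.28 and 1.34 in the mutant and -0.30, 0.69 and 1.23 in WT, without passing in either (adjusted p = 0.0610 and 0.0506). NGK1, a further relative of the kinases, had 0.76, 0.66 and 0.89 in the mutant and -0.13, -0.38 and 1.44 in WT, and did not pass either.

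The genes of glucose sensing set the transcription of HXT genes through the membrane sensors Snf3 and Rgt2, which lead to the removal of the corepressors Mth1 and Std1. Of 8 measured, 5 had a value on every array. Among these 5, 1 rose and none fell in either strain. Of all genes, 12.1% rose and 15.8% fell in the mutant, and 17.2% and 16.3% in WT. SNF3, the sensor of low glucose, rose in the mutant, with 0.65, 0.75 and 0.96 in the mutant and 0.04, 0.25 and -0.10 in WT. RGT2, the sensor of high glucose, rose in WT, with 0.60, 0.69 and 0.65 in the mutant and 0.25, 1.03 and 1.02 in WT. The slopes of these sensors did not pass as different between strains (adjusted p = 0.234 for SNF3 and 0.742 for RGT2). The SNF3 call was lost without any 1 of the mutant arrays (adjusted p = 0.0691 to 0.139), and the RGT2 call without the WT array of 6 or 9 mM (adjusted p = 0.0869 and 0.103). Without centring SNF3 had a mutant slope of 0.06 (adjusted p = 0.247) and RGT2 a WT slope of 0.08 (adjusted p = 0.130). After quantile normalization neither passed (adjusted p = 0.0707 and 0.109). STD1 had no value on the WT 3 mM array. It stood at -0.47, -0.58 and -1.11 in the mutant and at -0.89 and -2.94 in WT at 6 and 9 mM, and fell in WT on 5 arrays (adjusted p = 6.93e-04). YCK1, a casein kinase of this pathway, had -0.03, 0.74 and 1.06 in the mutant and -0.21, -0.50 and 0.65 in WT, with no call.

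In the repression pathway, the kinase Snf1 inactivates the repressor Mig1 when glucose is scarce. Of 17 measured genes 14 were fitted on all arrays. In the mutant 1 rose and 2 fell (12.1% and 15.8% of all genes did), and in WT 3 rose and 1 fell (17.2% and 16.3%). MIG1 itself fell in both strains, with -0.93, -1.29 and -1.41 in the mutant and -1.05, -1.96 and -2.27 in WT (adjusted p = 0.00564 and 1.72e-04). REG1, the subunit that directs the phosphatase Glc7 to this pathway, rose in both, with 0.61, 1.10 and 1.77 in the mutant and 0.60, 0.53 and 1.31 in WT (adjusted p = 0.00320 and 0.0137). Without the 9 mM array of the strain, REG1 did not pass (adjusted p = 0.0590 in the mutant and 0.222 in WT). In WT it also did not pass without centring (0.08, adjusted p = 0.0982) or after quantile normalization (adjusted p = 0.0858). MIG3, a relative of MIG1, fell in the mutant, with -1.38, -2.66 and -1.06, against -0.43, -0.43 and -0.91 in WT, and did not pass without the mutant 6 mM array (adjusted p = 0.0762). NRG1, a repressor of glucose-controlled genes, had -0.62, -1.49 and 0.12 in the mutant and 0.64, 1.28 and 1.59 in WT, where it rose. The slope of NRG1 was lower in the mutant, by -0.27 ± 0.07 (adjusted p = 0.0473). That call held in 6 of 13 other settings of the fit (adjusted p = 0.0149 to 0.278) and was lost without any 1 WT array or the mutant array of 3 or 6 mM (adjusted p = 0.0770 to 0.149). The NRG1 rise in WT was lost without the WT array of 6 or 9 mM (adjusted p = 0.0562 and 0.0881) and after quantile normalization (adjusted p = 0.0585). ELM1, which also rose in WT, was named after its values were seen. TOS3, a kinase that activates Snf1, had no value at mutant 6 mM. It stood at -1.30 and -1.58 in the mutant at 3 and 9 mM and at -0.73, -0.48 and -1.06 in WT, and fell in the mutant (adjusted p = 0.0133).

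Glucose-repressed genes were called in both directions. Of 16 measured, 12 were fitted on all arrays. Among these 12, 2 rose and 1 fell in the mutant (12.1% and 15.8% of all genes did), while 3 rose and 1 fell in WT (17.2% and 16.3%). Their median slope was -0.03 in the mutant and 0.01 in WT. SUC2, the invertase gene and a standard target of Mig1, fell in both strains by the slope, with -0.36, -0.66 and -1.20 in the mutant and -1.13, -1.04 and -0.91 in WT (adjusted p = 0.0365 and 0.0175). In WT the value at 9 mM was no lower than at 3 mM. SUC2 did not pass in the mutant without any 1 of its arrays (adjusted p = 0.0667 to 0.282), nor in WT without that of 6 mM (adjusted p = 0.0785). After quantile normalization it passed in neither (adjusted p = 0.117 in the mutant and 0.0744 in WT), and with trended and robust variances not in the mutant (adjusted p = 0.0531). GAL10, the epimerase of galactose use, rose in both by the slope, with 0.44, 0.84 and 1.33 in the mutant and 1.21, 0.28 and 1.19 in WT, where the value at 9 mM was no higher than at 3 mM. GAL10 did not pass in the mutant without the array of 6 or 9 mM (adjusted p = 0.0819 and 0.197), nor in WT without that of 3 or 9 mM (adjusted p = 0.0619 and 0.270). Without centring its slope was 0.08 in both (adjusted p = 0.136 in the mutant and 0.167 in WT), and after quantile normalization it passed in neither (adjusted p = 0.0597 and 0.138). MLS1, malate synthase of the glyoxylate cycle, had 0.23, 0.18 and 0.67 in the mutant and 1.53, 2.45 and 3.13 in WT, and its slope was lower in the mutant by -0.31 ± 0.05 (adjusted p = 0.0126). The MLS1 difference held in 11 of 13 other settings of the fit and was lost once the WT array of 6 mM was left out (adjusted p = 0.0610) and after quantile normalization (adjusted p = 0.241). GAL7, of the same galactose pathway, stood at 0.68, -1.25 and 0.18 in the mutant and at 0.35, 1.96 and 2.07 in WT, a difference in slope of -0.28 ± 0.07 (adjusted p = 0.0477). The GAL7 difference held in 4 of 13 other settings of the fit (adjusted p = 0.0257 to 0.297) and was lost without any 1 WT array or the mutant array of 3 or 6 mM (adjusted p = 0.0576 to 0.169). FBP1, a gluconeogenic phosphatase named after its values were seen, passed in the mutant (adjusted p = 0.0462) and not in WT (adjusted p = 0.0641), and the test of the difference gave an adjusted p of 0.915.

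Of 12 measured enzymes that use hexose phosphate, 10 were fitted on all arrays, with 3 higher and 2 lower in the mutant and 2 higher and none lower in WT. The shares over all genes were 12.1% higher and 15.8% lower in the mutant and 17.2% and 16.3% in WT. UGP1, which makes UDP-glucose, rose in both, with 0.63, 1.34 and 3.56 in the mutant and 0.92, 1.75 and 2.24 in WT (adjusted p = 5.95e-04 and 5.01e-04). PGM2, the major phosphoglucomutase, rose in both, with 0.22, 0.74 and 1.57 in the mutant and -0.05, 1.08 and 2.18 in WT (adjusted p = 0.0170 and 0.00202). PGM2 did not pass in the mutant without the array of 6 or 9 mM (adjusted p = 0.0523 and 0.274), nor in WT without that of 9 mM (adjusted p = 0.149). With 1 mean per strain it passed in neither (adjusted p = 0.125 in the mutant and 0.0570 in WT), and without centring its mutant slope was 0.09 (adjusted p = 0.125). PGM1, the minor phosphoglucomutase, fell in the mutant, with -1.47, -2.25 and -1.58, against -0.34, -0.10 and -0.31 in WT. The slope of PGM1 differed by -0.22 ± 0.07 and did not pass (adjusted p = 0.0785). TPI1, triose phosphate isomerase, rose in the mutant, with 0.64, 1.45 and 1.51, against 1.26, 0.14 and 0.57 in WT. WT was the higher at 3 mM and the mutant at 6 and 9 mM. TPI1 did not pass without the mutant 6 mM array (adjusted p = 0.0532). PFK2, a phosphofructokinase subunit that fell in the mutant, was named after its values were seen.

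**Figure D4:**
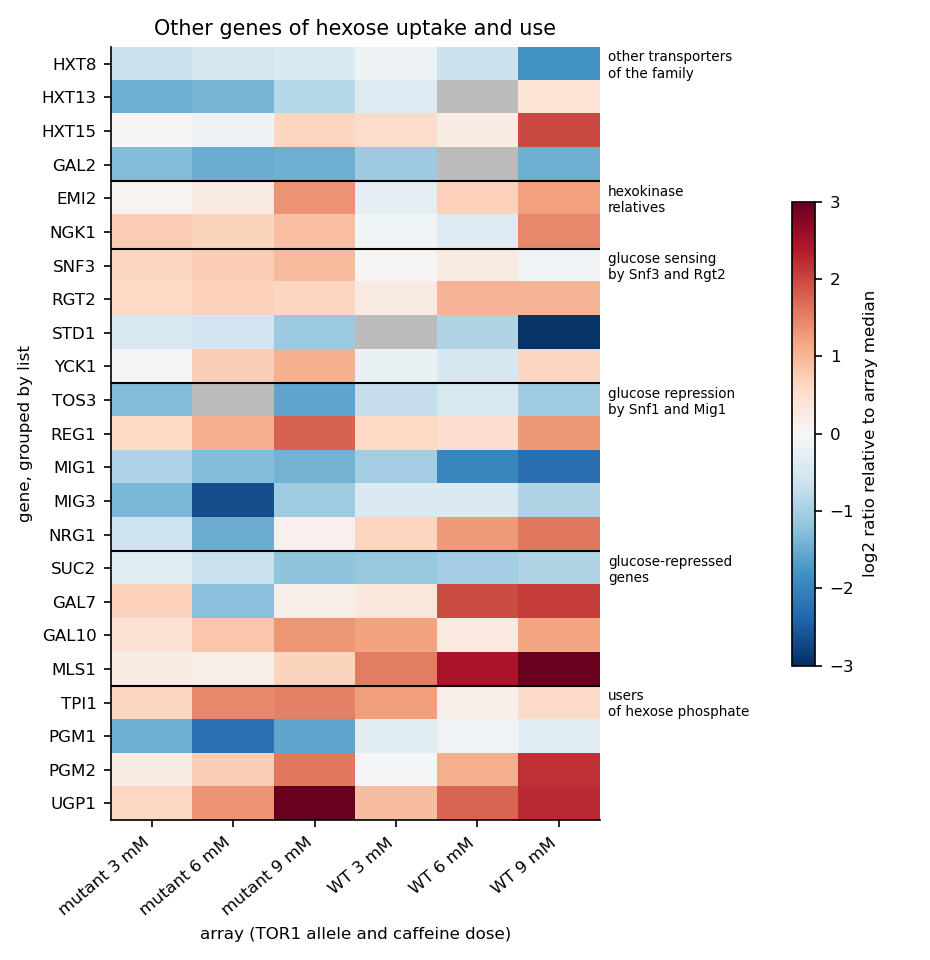
Centred log2 ratios (colour, red above and blue below the array median, clipped at 3; grey where an array had no value) of the named genes around hexose uptake and use, in rows grouped by list, on the 3 mutant and the 3 WT arrays in columns. UGP1 reaches 3.56 in the mutant at 9 mM, and MLS1 differs between strains, with 0.67 in the mutant and 3.13 in WT at 9 mM.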

How the data were processed

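The deposited log2 ratios were made by the authors from polyA RNA without caffeine (Cy3) and with caffeine (Cy5), per the labels. Base 2 follows from the values, since 2 to the power of each is a ratio with 2 decimals. Scanner output was not analysed here. Scanner settings, background correction and normalization are not given in the sources used here. Signal over background was not examined, and the number of arrays limits the precision. Of 6214 probes, 5596 had a single gene symbol, 0 had several and 618 were not listed and stay unnamed. All 5596 matched RefSeq's table by Entrez identifier. Spots of a gene were averaged. Arrays were centred on the median of named genes. limma 3.58.1 (R 4.3.3; lmFit, eBayes) fitted across all 5212 genes a slope on dose per strain, without intercept, with 4 residual and 9.69 prior degrees of freedom, tested 2-sided. Genes missing on an array were fitted in an alternative with at least 4 arrays, where p-values were adjusted over 5469 genes. Members and lists were chosen with earlier results of these data known. Of other lists, up to 4 genes with the largest slope were named, plus any called for mutant minus WT. The procedure was tested on simulated data. No sequence is shown.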

Additional observations from a re-analysis of the deposited data

Results flagged for a closer look

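HXT3 was above the array median on all 3 mutant arrays and below it on all 3 WT arrays, a pattern that was not counted over all genes. The difference in slope, mutant minus WT, was 0.23 per mM and did not pass the test (limma adjusted p = 0.0774).

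Of 222 genes whose slopes differed between the strains by the test, none was a member and 3 were in the other gene lists. Over all 5212 genes, 1.94% were higher in the mutant and 2.32% lower. MLS1 and GAL7 were 2 of 12 glucose-repressed genes fitted, and NRG1 was 1 of 14 genes of the repression pathway. The remaining lists had none. MLS1 differed by -0.31, NRG1 by -0.27 and GAL7 by -0.28 per mM, all lower in the mutant. With 3 arrays per strain, no test for outlying arrays was made. Leaving out the WT 6 mM array left 19 genes called as different, against 222.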

How the results depend on the processing

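GLK1 rose in WT under all 13 alternatives, and HXK2 fell in both strains under 12, all but an intercept shared by all arrays. That intercept left 0 members called in the mutant, against 4 (over all genes 22, against 1455; 636 genes and 4 members at an unadjusted p below 0.05 in limma), and 1 in WT, against 5 (over all genes 144, against 1748). Of the genes of other lists named by rule and measured on all arrays, the single-strain calls of MLS1 and PGM2 in WT held under it. It turned slopes to 0.107 for HXT2 and 0.0197 for HXT4 in the mutant and to 0.0637 for HXT4, 0.145 for HXT6, 0.0505 for HXT7 and 0.176 for HXK1 in WT. By construction it takes up a dye bias constant for a gene. Quantile normalization left 707 genes called in the mutant, 803 in WT and 0 for the difference, against 222 (655 at an unadjusted p below 0.05), and turned HXT6 in the mutant to -0.0053 and the GLK1 difference to 0.0036. Without centring the mutant slopes of HXT6 and HXT7 were -0.0562 and -0.0196, and with 1 mean per strain HXT6 was at -0.22. The difference called 1 member with 1 mean per strain and 1 with trended and robust variances, HXT3 in both. Over all genes these settings called 194 and 287, against 222. The cause of these changes was not tested.

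Leaving out single arrays gave 584 (without mutant 6 mM) to 1643 called genes in the mutant, 1032 (without WT 9 mM) to 1853 in WT, and 19 (without WT 6 mM) to 298 for the difference, with 0 to 2 members called as different. Slopes that changed sign ranged from -0.118 to 0.006 for HXT1 and from -0.0843 to 0.0339 for HXT6 in the mutant, and from -0.167 to 0.0573 for HXT7 and from -0.335 to 0.0324 for HXK1 in WT. Differences ranged from -0.145 to 0.0313 for HXT4, from -0.0246 to 0.146 for HXT6 and from -0.0146 to 0.209 for HXT7. Of these, HXK1 in WT was called without the WT 9 mM array. Among all member slopes and alternatives, 341 values kept direction and side of the threshold, 16 passed newly, 15 lost the call and 18 changed sign. The labels carry no replicate numbers, and each strain and dose has 1 array. Pairing by dose (the mean of 3 matched differences with dose as a block, chosen after seeing the data) called 588 genes as different, against 222 by slopes, and 1 member, HXT3. By this pairing NRG1 and MLS1 passed and GAL7 did not (adjusted p = 0.0215, 0.0154 and 0.107).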
